A study of Mus musculus with 8 samples.

Results

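Integrins are surface receptors built from an α and a β chain, and laminins are secreted trimers of an α, a β and a γ chain. The genes described here are those whose symbol starts with Itga, Itgb, Lama, Lamb or Lamc followed by the letter or digit of a chain. Genes named for binding to an integrin chain (Itgb1bp1, Itgb1bp2 and Itgb3bp) and Itgbl1, which codes for no chain, were left out. The rule used names alone and no measured value. It found 32 genes of 12393 measured on the arrays: 8 leukocyte integrin chains, 13 matrix-binding integrin chains, the platelet chain Itga2b and 10 laminin chains. Itga1, Itga10, Itga11, Itgad and Itgb8 were not analysed here.

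An integrin binds its ligand outside the cell and couples through adaptors to the actin skeleton inside it. Leukocyte integrins hold white cells to vessel walls and to other cells, through counter-receptors such as Icam1 and Vcam1. Matrix-binding integrins anchor muscle cells, fibroblasts and vessels to fibronectin, collagens and laminins, and laminins form the sheet of basement membrane around each cardiac muscle cell and each capillary.

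RNA came from the left ventricle of male mice, 2 to 4 months old, of the inbred strains MRL/MpJ, known for closing ear wounds with little scar, and C57BL/6. Each strain gave 4 arrays: 1 from an untreated heart, which was not sham-operated, and 1 each from day 3, day 30 and day 60 after the left anterior descending coronary artery had been tied off (LAD ligation), which infarcts the ventricle. Thus 8 arrays covered 8 groups, with 1 array per strain and time point and no replicate within a group, and whether each held 1 animal or a pool is not stated in the labels. The comparisons asked which integrin and laminin genes differed after ligation, between the strains, and in their response by strain.

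Values are MAS5 signals, a linear probe set intensity, and every gene is given by its brightest probe set. Signals of different probe sets cannot be set against each other, so comparisons run within a gene. The exception is sums over lists of marker genes, which are compared between arrays and in which bright genes weigh most. Trimmed mean signals lay between 247.2 and 248.4 in the 8 arrays. The C57BL/6 day 30 array stood apart: its correlation with the other arrays was 0.844 to 0.877 over 7 pairs, against 0.884 to 0.948 over the 21 other pairs. The tissue label was checked on heart muscle genes: Myl2, the ventricular myosin light chain, had signals from 23390.1 to 75193.3. Atrial genes were bright in some arrays as well, and Myl7, the atrial light chain, read 3899.3 and 2967.3 in the MRL/MpJ arrays of days 30 and 60 and 3371.6 in the C57BL/6 array of day 30, against 11.9 in that of day 60. The part of atrial tissue in the results was not tested.

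Of the 32 genes, 22 were at 121 or brighter (the median over all signals) in 2 or more arrays, and only these entered the tests: 3 of 8 leukocyte chains, 9 of 13 matrix-binding chains, Itga2b and 9 of 10 laminin chains. Itgb2l and Lama3 passed through 2 C57BL/6 arrays each. Differences are given on the scale log2(signal + 28.6), where 28.6 is the 20th percentile of all values. This offset compresses differences between dim signals. Tests were made with limma over 8195 genes, with Benjamini-Hochberg adjustment, and a gene was called at an adjusted p under 0.05. The error came from the scatter of the 8 arrays around additive effects of strain and time, with 3 residual degrees of freedom, so p-values measure the spread between these arrays, not between animals.

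No integrin or laminin gene was called in any of the comparisons, of strain, of day, of ligated against untreated hearts, or of the difference in response between strains. Few genes were called at all. The share called was 0.22% of the 8195 genes for the strain difference, 0% on day 3, 0.0122% on day 30, 0.0366% on day 60 and 0.195% for all ligated against untreated arrays; limma called 0% for day 30 against day 3, for day 60 against day 3 and for both strain-by-response terms. At an unadjusted p under 0.05, the 22 tested genes gave 2 differences on day 3 (Itgb2 and Lamc1, background 6.53% of tested genes) and 3 on day 30 (Itga6, Itgb1 and Itgb2, 11%). They gave 4 on day 60 (Itgav, Itgb2, Itgb2l and Lama5, 10.6%), 2 for ligated against untreated (Itgav and Itgb2, 10.4%) and 2 for strain (Itga5 and Itga6, 7.96%). There was 1 for day 30 against day 3 (Lamb3, 5.74%) and 1 for day 60 against day 3 (Itgb2l, 6.43%). For the day 3 term by strain there were 0 (5.09%), and for the added ligated term by strain 0 (2.04%). The account below therefore gives the values array by array, and differences are described without a call.

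The β2 chain gene Itgb2 was brighter in every ligated heart than in either untreated heart. Itgb2 codes for the β chain that Itgal, Itgam and Itgax share, found on all white cells. Its signals were 99.6 untreated, 258 on day 3, 227.5 on day 30 and 218.7 on day 60 in MRL/MpJ, and 157.2, 227.4, 220.9 and 273.7 at the same times in C57BL/6. The 6 ligated signals, 218.7 to 273.7, did not overlap the 2 untreated ones. The difference between ligated and untreated arrays was 0.78 ± 0.21 (SE, limma), a 1.72-fold ratio, with an adjusted p of 0.261. By day it was 0.81 on day 3, 0.71 on day 30 and 0.82 on day 60 (adjusted p from 0.334 to 0.633). The size rested on the untreated arrays, which differ by -0.54 between MRL/MpJ and C57BL/6: it was 0.53 without the MRL/MpJ untreated array and 1.04 without the C57BL/6 one.

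The α partners of Itgb2 did not all follow its course. Itgam was higher on days 30 and 60, as Itgb2 was, but close to its untreated signals on day 3. Itgal was lower in ligated hearts, and Itgax overlapped. Itgam and Itgal were dim and did not pass the filter. Itgam, the α chain of the complement receptor on monocytes and neutrophils, is shown first with its promoter and with that of Itgax, the α chain typical of dendritic cells and macrophages. These promoters are printed because both genes lie on chromosome 7 on the plus strand and serve the same β chain, yet their signals had different time courses. The promoter of Itgb5, whose probe sets part from each other below, is the contrast. Sequences are the 250 bases upstream of the gene start in RefSeq (GRCm38.p6), at chr7:128062390-128062639 for Itgam, chr7:128129300-128129549 for Itgax and chr16:33829415-33829664 for Itgb5, all on the plus strand. Capitals mark GAGGAA, the core of sites bound by the myeloid factor PU.1, and GGGCGG, the GC box of Sp factors, on either strand (TTCCTC and CCGCCC on the other). The genes and both motifs were chosen after the values and sequences were seen.
Itgam: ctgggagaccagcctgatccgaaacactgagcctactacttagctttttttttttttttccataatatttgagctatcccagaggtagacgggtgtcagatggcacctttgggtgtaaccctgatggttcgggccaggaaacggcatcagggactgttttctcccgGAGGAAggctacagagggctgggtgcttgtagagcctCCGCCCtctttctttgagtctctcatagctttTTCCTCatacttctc
Itgax: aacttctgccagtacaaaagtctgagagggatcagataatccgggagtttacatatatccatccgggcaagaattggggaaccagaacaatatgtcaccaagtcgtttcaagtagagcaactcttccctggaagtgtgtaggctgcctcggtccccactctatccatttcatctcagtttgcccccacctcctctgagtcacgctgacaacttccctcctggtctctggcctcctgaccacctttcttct
Itgb5: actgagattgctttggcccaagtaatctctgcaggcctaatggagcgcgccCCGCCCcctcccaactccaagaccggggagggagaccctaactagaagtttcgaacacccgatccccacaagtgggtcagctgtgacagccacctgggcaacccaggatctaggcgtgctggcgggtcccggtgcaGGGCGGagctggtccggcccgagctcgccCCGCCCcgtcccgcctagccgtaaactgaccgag
The Itgam window held 2 GAGGAA and 1 GGGCGG, the Itgax window 0 and 0, and the Itgb5 window 0 and 3, and no match overlapped another. GAGGAA was present in 23.3% and GGGCGG in 32.7% of 32851 RefSeq promoter windows of that length. Of the 32 genes, 20 had a window, 23 windows in all. GAGGAA was found in 2 of 5 leukocyte, 5 of 11 matrix-binding and 5 of 6 laminin windows, and GGGCGG in 2, 5 and 2 of them. These are matches of letters, not binding sites.

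Itgam stayed low until day 3 and was higher on both later days in both strains. Its signals were 32.3 untreated, 35.3 on day 3, 84.4 on day 30 and 112.9 on day 60 in MRL/MpJ, and 46.4, 46.9, 90.2 and 81.9 in C57BL/6. The 4 signals of days 30 and 60 lay above the 4 of untreated and day 3 hearts. That split was seen in the data, and its share over all genes was not counted. All stood below the signal filter, so the values come from a fit of all genes without it: 0.78 ± 0.27 on day 30 and 0.89 ± 0.27 on day 60 against untreated (SE, limma, adjusted p = 0.456 and 0.42). Day 60 against day 3 gave 0.85 (adjusted p = 0.729).

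Itgal, the α chain of the lymphocyte receptor for Icam1, was dimmer in every ligated heart. It read 110.7 untreated, 62.4 on day 3, 58 on day 30 and 70.1 on day 60 in MRL/MpJ, and 127.9, 52.4, 58.6 and 20.9 in C57BL/6. Every ligated signal was below both untreated ones, at signals below the filter in all arrays except the untreated C57BL/6 heart. The difference between ligated and untreated hearts was -0.88 ± 0.27 in the fit without the filter (adjusted p = 0.441).

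Itgax was brightest on day 3 in MRL/MpJ and on day 30 in C57BL/6. Signals were 103.3 untreated, 199.4 on day 3, 114.9 on day 30 and 99.2 on day 60 in MRL/MpJ, and 150.5, 143.2, 196.1 and 99 in C57BL/6. Ligated and untreated signals overlapped, and the difference was 0.11 ± 0.25 (adjusted p = 0.907).

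Chains for homing to mucosa and inflamed vessels were dim. Itga4 pairs with Itgb7 or Itgb1 and binds Vcam1 and fibronectin; it read 46 untreated, 74.6 on day 3, 8.9 on day 30 and 28.7 on day 60 in MRL/MpJ, and 13.7, 50.1, 30.7 and 13.4 in C57BL/6. The day 3 array had the highest signal in each strain, and without the filter day 30 against day 3 gave -0.93 ± 0.37 (adjusted p = 0.751). The 2 other Itga4 probe sets gave 0.06 and 0.22, so the sign turned. Itgb7 read 79.8, 43.1, 42.3 and 17.7 from untreated to day 60 in MRL/MpJ, and 43.8, 25.4, 66 and 22.1 in C57BL/6. Its day 60 signals were the lowest of each strain (-0.87 against untreated, adjusted p = 0.507 without the filter). Itgae, the partner of Itgb7 that binds E-cadherin, stayed between 8.2 and 45.1.

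Itgb2l, a gene related to Itgb2, was lowest on day 60. Its signals were 89.6 untreated, 94.2 on day 3, 95.6 on day 30 and 51.4 on day 60 in MRL/MpJ, and 149.2, 106.9, 124.2 and 55.6 in C57BL/6. Both day 60 signals lay below the 6 others, a pattern whose share over all genes was not counted. Day 60 against untreated gave -0.82 ± 0.24 (adjusted p = 0.294), and day 60 against day 3 gave -0.65 (adjusted p = 0.739).

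Marker genes of white cells were measured beside these chains. The macrophage and monocyte list (7 of 7 genes measured, 6 past the filter, none at 0) summed to 5601.3 to 8134.2 in the 3 ligated MRL/MpJ arrays, against 3074.5 in the untreated one, and to 5723.9 to 6991.6 in the ligated C57BL/6 arrays, against 4605.8. Over 4 genes common to all leukocytes the sums were 1021.1 to 1064.8 in ligated and 514.3 in untreated MRL/MpJ arrays, and 907.1 to 1284.3 in ligated and 659.8 in untreated C57BL/6 arrays. Both sums were thus higher in all 6 ligated arrays, as Itgb2 was. Single genes did not all follow: on day 60 in C57BL/6, Cd14 read 287.6 against 379.1 untreated. Laptm5 read 323.4 in that array, against 333.1 untreated. Neutrophil genes (4 of 5 past the filter) summed to 391.6 to 490.6 in ligated MRL/MpJ arrays against 491.5 untreated, and to 619.4 to 640 in C57BL/6 against 567.1. T and B cell genes were mostly dim, with 2 of 7 past the filter. They summed to 421.1 to 476.1 in ligated MRL/MpJ arrays against 476.4 untreated. In ligated C57BL/6 arrays the sum was 541.2 to 997.7 against 486.3, with 997.7 on day 30, in the array that stands apart. In whole tissue, fewer cells of a type and less RNA per cell cannot be told apart, and the part of these markers in the chain signals was not tested.

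**Figure D1:**
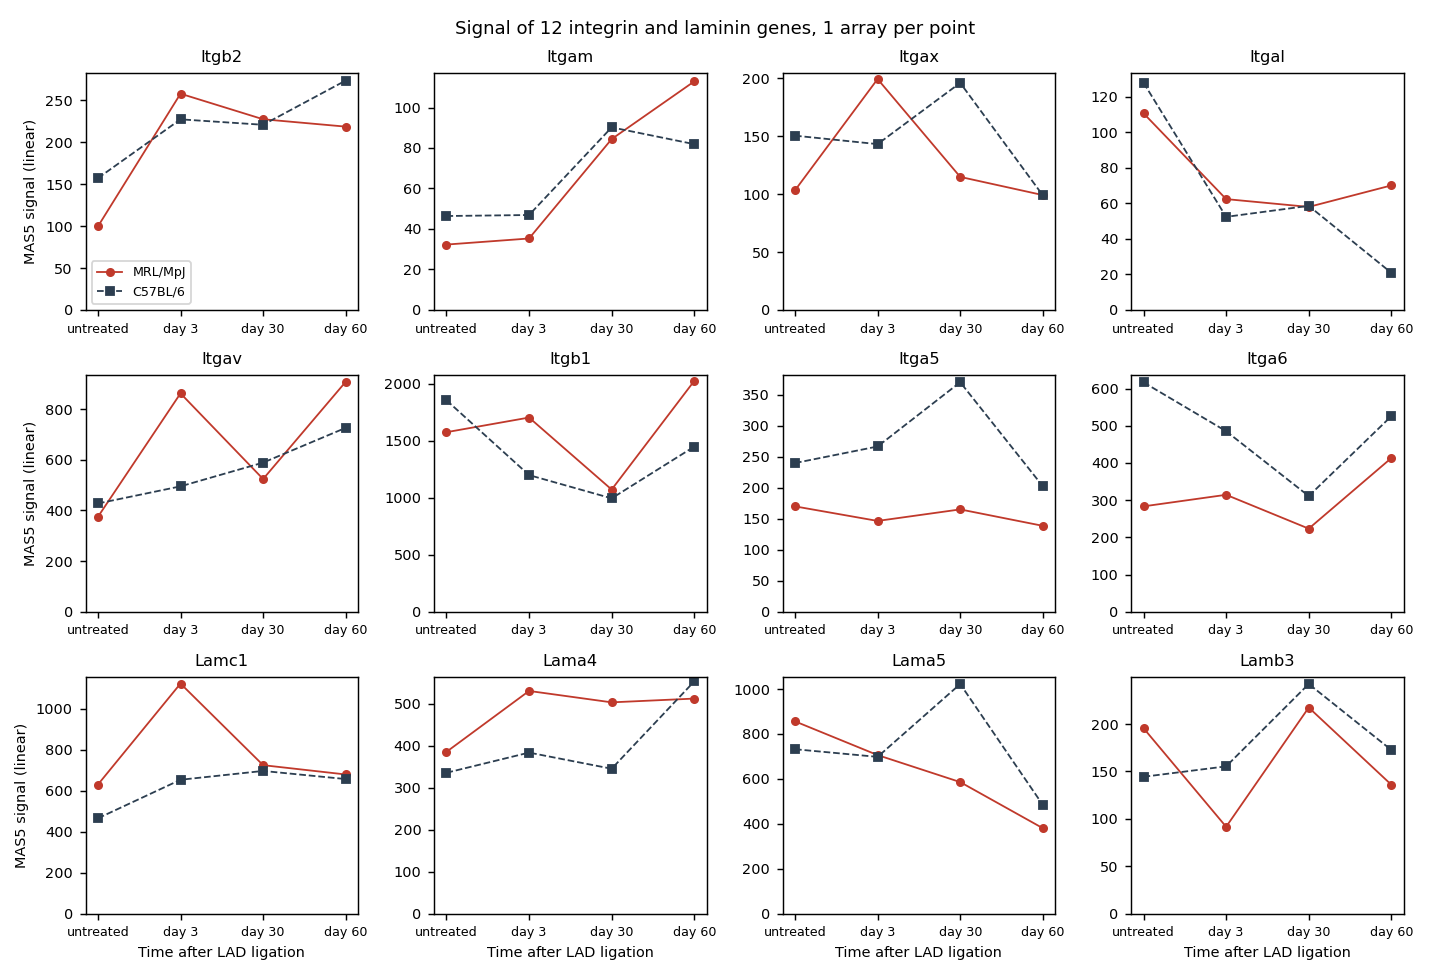
Signal (linear MAS5 intensity, vertical axis from 0) of 12 integrin and laminin genes in untreated, day 3, day 30 and day 60 hearts (horizontal axis, not to scale in time), with circles and full lines for MRL/MpJ and squares and broken lines for C57BL/6. Each point is 1 array, and lines join arrays of different hearts. Itgb2, Itgav and Lamc1 have all 6 ligated points above both untreated points, Itgal has them below, and Itga5 is lower in MRL/MpJ at each time.

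Ligands of leukocyte integrins were measured as a list: Icam1, Icam2, Vcam1, Madcam1, F11r, Cdh1 and Fgg. Not all of them are ligands of Itgb2 chains. Of these 7 genes, 5 were tested and none was called. Vcam1, the endothelial ligand of Itga4 chains, read 105.3 untreated, 224.6 on day 3, 282.1 on day 30 and 268.7 on day 60 in MRL/MpJ, and 127.1, 220.4, 224.4 and 269.9 in C57BL/6. All 6 ligated signals were above both untreated ones, with 0.93 ± 0.20 for ligated against untreated (adjusted p = 0.122). Icam1, the ligand of Itgb2 chains, read 115.1, 118.8, 153.5 and 214.1 from untreated to day 60 in MRL/MpJ, and 186.7, 169.8, 286.4 and 265.4 in C57BL/6. It had a difference of 0.60 on day 60 (adjusted p = 0.453), while on day 3 the C57BL/6 signal was below untreated. Icam2, another such ligand, read 406.2 untreated, 230.2 on day 3, 318.9 on day 30 and 316.3 on day 60 in MRL/MpJ, and 315.2, 252.4, 231.7 and 372.1 in C57BL/6, with -0.31 ± 0.21 for ligated against untreated (adjusted p = 0.654). Over the 7 measured genes that difference was above 0 in 3, with a median of -0.04.

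The platelet chain Itga2b, the α chain of the fibrinogen receptor, was above its own strain's untreated heart in all 6 ligated arrays, with overlap between strains. It read 203.9 untreated, 371.7 on day 3, 246.6 on day 30 and 239.8 on day 60 in MRL/MpJ, and 184.5, 230.6, 510.8 and 196.6 in C57BL/6. The C57BL/6 day 30 array, the one that stands apart, had the highest signal. Ligated against untreated gave 0.49 ± 0.31 (adjusted p = 0.626). Platelet markers (4 of 5 past the filter) summed to 1191.6 to 1461.5 in ligated MRL/MpJ arrays against 1260 untreated, and to 1435.8 to 2352 in C57BL/6 against 1424.4, with 2352 on day 30; their part was not tested. Itgb3, the β partner of Itga2b and also of Itgav, was dim, at 7.1 to 27.2.

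Among matrix-binding chains, the brightest probe set of Itgav and most probe sets of Itgb5 were brighter in all ligated hearts. Itgav codes for the α chain that with different β chains binds vitronectin, fibronectin and the latent form of TGF-β. Its signals were 374.5 untreated, 862.1 on day 3, 523.9 on day 30 and 907.8 on day 60 in MRL/MpJ, and 427.4, 495, 588.7 and 726 in C57BL/6. The 6 ligated signals were all above the 2 untreated ones, and in C57BL/6 each later array was brighter than the one before. Ligated against untreated gave 0.70 ± 0.24, a 1.62-fold ratio (adjusted p = 0.373), and day 60 gave 0.97 ± 0.30 (adjusted p = 0.312). Without the MRL/MpJ untreated array the first value was 0.45, and without the C57BL/6 one it was 0.94. The 2 other Itgav probe sets gave 1.33 (a dim one, at 10.7 to 160.7) and -0.28 on day 60. Neither was above untreated in all ligated hearts: in C57BL/6 they read 51.2 and 140.7 untreated, against 33.9 and 85.4 on day 3.

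Itgb5, the β partner of Itgav in the vitronectin receptor, gave a different answer by probe set. The brightest read 1395.8 untreated, 1864.3 on day 3, 1013.3 on day 30 and 1626.2 on day 60 in MRL/MpJ, and 1464.9, 1259.5, 1575.4 and 1448.2 in C57BL/6. Ligated and untreated signals overlapped, with a difference of 0.01 ± 0.25 (adjusted p = 0.995). Probe set 2 read 749.2, 1416.7, 1355.3 and 1911.1 in MRL/MpJ, and 781.4, 1114.7, 1433.6 and 1442.1 in C57BL/6. Probe set 3 read 269.3, 726.5, 612.1 and 876.4 in MRL/MpJ, and 357.1, 472.4, 840.6 and 792 in C57BL/6. Probe set 4 read 190.8, 369, 375 and 509.1 in MRL/MpJ, and 181.1, 297.1, 298.7 and 447.7 in C57BL/6. In these 3 probe sets every ligated signal was above both untreated ones. The share of all probe sets with this pattern was not counted.

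A fit with every probe set on its own (13280 probe sets), made after this disagreement was seen, gave probe sets 2, 3 and 4 of Itgb5 differences of 0.88, 1.11 and 0.92 for ligated against untreated (adjusted p = 0.178, 0.163 and 0.129). On day 60 they were 1.09, 1.35 and 1.24 (adjusted p of 0.196, 0.196 and 0.124). None of 33 tested probe sets of integrin and laminin genes was called in any comparison. Of all 13280 probe sets, limma called 0.211% for ligated against untreated, 0.0151% on day 3, 0.00753% on day 30, 0.136% on day 60, 0.422% for strain, and 0% for day 30 or day 60 against day 3. The 2 probe sets whose names end in x_at, which marks probes that can match other transcripts, are 1 and 4. The Itgb5 result of the rule for brightest probe sets thus stood alone among the 4.

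**Figure D2:**
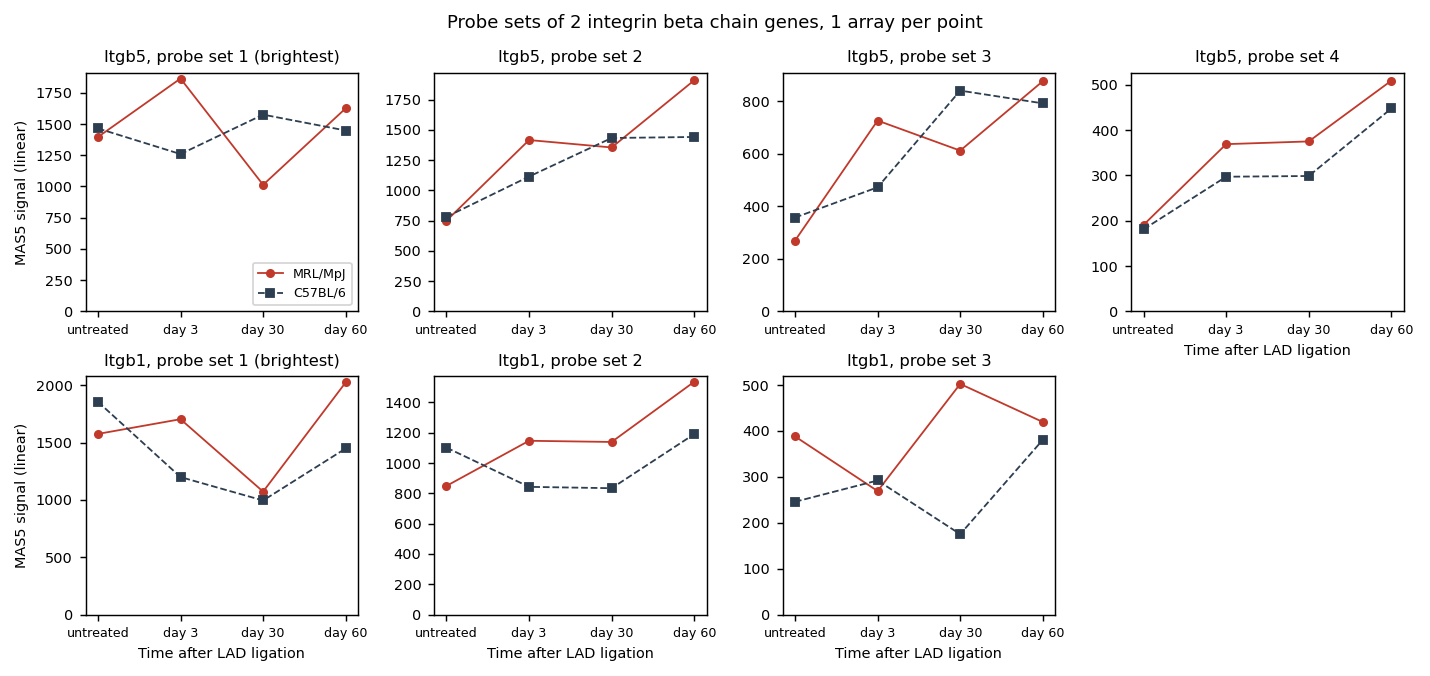
Signal (linear MAS5 intensity, vertical axis from 0) of the 4 probe sets of Itgb5 (upper row) and of the 3 brightest of 6 probe sets of Itgb1 (lower row) at each time point (horizontal axis, not to scale in time), with circles for MRL/MpJ and squares for C57BL/6, and 1 array per point. Probe sets 2, 3 and 4 of Itgb5 have all ligated points above both untreated points and probe set 1 does not, while in Itgb1 the low day 30 points of probe set 1 are not seen in both strains in probe sets 2 and 3.

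Fibroblast genes, as a sum, were higher in the same arrays, though Pdgfra read 147 on day 3 against 179.6 untreated in C57BL/6. Their list (6 of 6 past the filter, none at 0) summed to 17473.7 to 29837.8 in ligated MRL/MpJ arrays against 7376 untreated, and to 15395.4 to 16336.3 in C57BL/6 against 7031.4. Of 10 matrix ligands of integrins, all tested, 3 were called higher in ligated against untreated hearts and none lower (background 0.195% of tested genes). Vitronectin (Vtn) was not called, but each of its ligated signals was below the untreated one of its strain. It read 444.6, 392.5, 279.9 and 281.5 from untreated to day 60 in MRL/MpJ, and 563.1, 405.2, 479 and 497.4 in C57BL/6. Fibronectin (Fn1) rose by 2.15 ± 0.25 (adjusted p = 0.0351), the collagen genes Col1a1 by 2.37 ± 0.27 and Col3a1 by 1.87 ± 0.21 (both adjusted p = 0.0337). Periostin (Postn), a ligand of Itgav receptors, had 3.06 ± 0.49 with an adjusted p of 0.0658. The median over the 10 ligands was 1.57, that over the 13 matrix-binding chains -0.07 and that over all 12393 genes 0.00. The part of fibroblast markers in the Itgav and Itgb5 signals was not tested.

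Itga5, the α chain of the main fibronectin receptor, showed no such difference. It read 170 untreated, 146.5 on day 3, 165.1 on day 30 and 138.6 on day 60 in MRL/MpJ, and 239.9, 266.6, 370.3 and 202.5 in C57BL/6. Ligated against untreated was 0.00 ± 0.21 (adjusted p = 0.996). All 4 MRL/MpJ signals were instead below all 4 C57BL/6 signals, and the strain difference is given further on. Itga9, which binds tenascin and Vcam1, read 316, 473, 301.9 and 354.5 from untreated to day 60 in MRL/MpJ, and 344.7, 289, 230.6 and 276.7 in C57BL/6. It overlapped between ligated and untreated hearts (-0.07, adjusted p = 0.932), and its 2 other probe sets gave -0.23 and 0.57. Both of these were dim, at 7.7 to 142.7 and 9.7 to 97.9.

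The remaining chains of this class were near the filter or below it. Itgb6, an epithelial partner of Itgav, stayed between 85.5 and 164.8. Itga8, the nephronectin receptor, lay between 28.2 and 111.4. Itga2, a collagen receptor, read 87.5, 40, 72.2 and 91.7 from untreated to day 60 in MRL/MpJ, and 109.8, 97.5, 132 and 82.4 in C57BL/6, with no order by time that both strains shared.

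The laminin receptors and their common partner Itgb1 showed no shared course after ligation. Itgb1 is the β chain of most matrix-binding integrins and in heart muscle pairs above all with Itga7. Its brightest probe set read 1576.3 untreated, 1704.9 on day 3, 1072.7 on day 30 and 2026.6 on day 60 in MRL/MpJ, and 1856.8, 1199.7, 995.4 and 1449.6 in C57BL/6. The 2 day 30 signals were the lowest of all 8, a split whose share over all genes was not counted. Day 30 against untreated gave -0.71 ± 0.27 (adjusted p = 0.408). Probe set 2 gave 0.01 and probe set 3 gave -0.04 on that day, and with the mean of all 6 probe sets the difference was 0.07, so the sign turned. That mean gives equal weight to dim probe sets, with mean signals of 8.15, 25.3 and 20. In C57BL/6 the day 30 array was the lowest in probe sets 1, 2 and 3, at 995.4, 834 and 175.1. In MRL/MpJ probe sets 2 and 3 read 1139.3 and 502.5 on day 30, against 849 and 388.2 untreated.

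Itga7, the laminin receptor chain of heart and skeletal muscle, read 462.3, 321.7, 510.4 and 346.6 from untreated to day 60 in MRL/MpJ, and 408.6, 461, 359.4 and 395.1 in C57BL/6. The strains stood on opposite sides of their untreated hearts on days 3 and 30, and ligated against untreated was -0.13 ± 0.23 (adjusted p = 0.876). Itga6, which binds laminin on endothelial and epithelial cells, read 283.3, 314.4, 223.4 and 413.2 in MRL/MpJ, and 616.7, 485.3, 311 and 525.8 in C57BL/6. Day 30 was the lowest time in each strain (-0.62 ± 0.26 against untreated, adjusted p = 0.449). That value was -0.92 without the MRL/MpJ untreated array and -0.32 without the C57BL/6 one, and the other Itga6 probe set gave 0.09.

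Itga3 read 190.9, 221.2, 122.1 and 185.6 in MRL/MpJ, and 179.9, 203.4, 214.8 and 198.4 in C57BL/6, a spread in which only the MRL/MpJ day 30 array was low. Itgb4, the hemidesmosome chain that pairs with Itga6, stayed between 15.7 and 49 and below the filter. Ventricular heart muscle genes (7 of 7 past the filter) summed to 118055.4 to 167577.8 in ligated MRL/MpJ arrays against 138208.9 untreated, and to 140437.8 to 231958 in C57BL/6 against 121710.4, with 231958 on day 30; their part was not tested.

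Of the laminin chains, Lamc1 was brighter in every ligated heart in its brightest probe set. Lamc1 codes for the γ chain of most laminins. Its signals were 629 untreated, 1121.9 on day 3, 723.8 on day 30 and 678.4 on day 60 in MRL/MpJ, and 464.6, 652.6, 695.6 and 656 in C57BL/6. The 6 ligated signals lay above both untreated ones, the day 3 array of MRL/MpJ far above the rest. Day 3 against untreated gave 0.64 ± 0.27 (adjusted p = 0.756), which was 0.34 without the MRL/MpJ day 3 array and 0.93 without the C57BL/6 one. Ligated against untreated gave 0.43 ± 0.22 (adjusted p = 0.539). The other Lamc1 probe set was dim, at 24.7 to 115.5, and gave 0.54. In MRL/MpJ it read 28.5 on day 30 against 34 untreated.

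Lama4, the α chain of endothelial and fat cell basement membranes, read 385.5, 530.8, 503.6 and 512.6 from untreated to day 60 in MRL/MpJ, and 335.7, 383.8, 345.3 and 553.6 in C57BL/6. Each ligated signal was above the untreated one of its strain, with overlap between strains (0.35 ± 0.21, adjusted p = 0.606). The other Lama4 probe set gave 0.17, and in MRL/MpJ it read 318.2 on day 60 against 333.7 untreated. Lama5, the other endothelial α chain, read 856.3, 706, 585.7 and 380.3 in MRL/MpJ, and 732.1, 698, 1022.6 and 484.1 in C57BL/6. In MRL/MpJ each later array was dimmer than the one before, and both day 60 signals were below the 6 others. How many of all genes have such a day 60 split was not counted. Day 60 against untreated gave -0.84 ± 0.29 (adjusted p = 0.378), and the other Lama5 probe set gave -0.71 (adjusted p = 0.404). Endothelial genes (7 of 7 past the filter) summed to 2999.7 to 3595.1 in ligated MRL/MpJ arrays against 3556.4 untreated, and to 3075.2 to 3678.2 in C57BL/6 against 4226.6; their part was not tested.

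Lama2, the α chain of the muscle basement membrane, was brighter in MRL/MpJ than in C57BL/6 at each time. It read 840.4, 791.1, 656.9 and 708.5 in MRL/MpJ, and 627.9, 629.5, 433.9 and 662 in C57BL/6, with the day 30 array lowest in each. Ligated against untreated gave -0.18 ± 0.19 (adjusted p = 0.786).

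Signals of the β chains Lamb1 and Lamb2 overlapped between ligated and untreated hearts. Lamb1 read 227.2, 263.7, 247.2 and 284.6 in MRL/MpJ, and 238.1, 242, 193.5 and 250.7 in C57BL/6. Lamb2, typical of mature basement membranes, read 429.7, 364.2, 394.5 and 424.5 in MRL/MpJ, and 341.3, 363.5, 364 and 435.6 in C57BL/6. Ligated against untreated gave differences of 0.07 ± 0.19 and 0.02 ± 0.19 (adjusted p = 0.922 and 0.978).

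Lamb3, a chain of the laminin under epithelia, read 195.7, 91.6, 217.5 and 136 in MRL/MpJ, and 144.4, 155.4, 242.4 and 172.7 in C57BL/6. The day 30 array was brightest in each strain, and day 30 against day 3 gave 0.80 ± 0.29 (adjusted p = 0.79). It was 0.50 when the MRL/MpJ array of day 3 was left out. Lama3, its epithelial partner, lay between 58 and 150.6. Lamc3 read 161.5, 153.5, 46.8 and 95.6 in MRL/MpJ, and 147.5, 142.3, 149.2 and 89.5 in C57BL/6, with the MRL/MpJ day 30 array lowest. Ligated against untreated gave -0.44, and the other Lamc3 probe set, a dim one at 11.7 to 139.6, gave 0.85, so the sign turned. Lama1, the chain of embryonic basement membrane, never exceeded 13.5.

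The laminin chains lie in basement membrane with 11 partner genes, all of which were tested and none of which was called. Sparc, a collagen-binding matrix protein, had the largest difference of them for ligated against untreated, 1.14 ± 0.33 (adjusted p = 0.281). Their median was 0.05 for ligated against untreated, beside -0.01 for the 10 laminin chains.

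**Figure D3:**
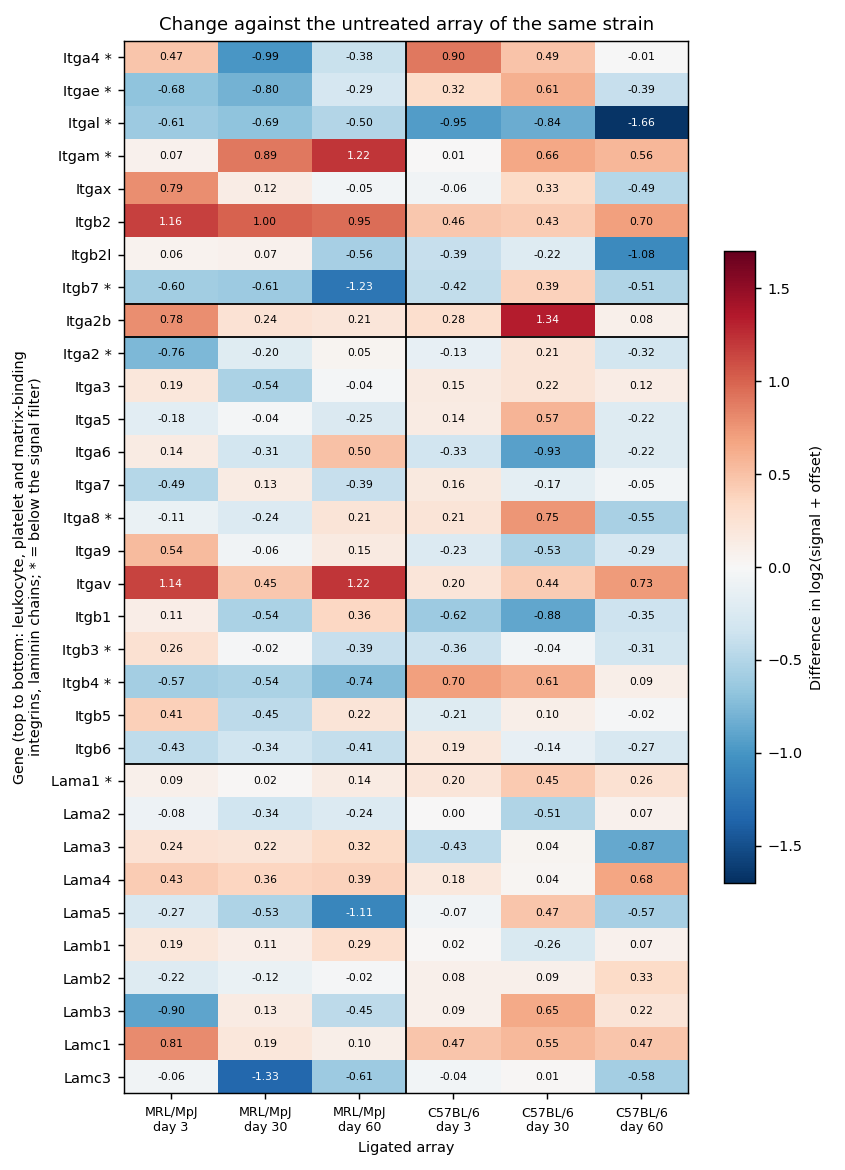
Difference of each ligated array from the untreated array of its strain, in log2(signal + offset), for the 32 genes (rows, grouped as leukocyte, platelet and matrix-binding integrins and laminin chains; a star marks genes below the signal filter) and the 6 ligated arrays (columns, MRL/MpJ left, C57BL/6 right). Red is higher and blue lower in the ligated array. Rows of the same colour throughout include Itgb2, Itgav and Lamc1 (red) and Itgal (blue), and the 3 arrays of a strain share 1 untreated array.

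As classes, leukocyte and matrix-binding integrins had medians close to that of all genes on days 3 and 30. Medians take in chains below the filter, and only 3 of 8 leukocyte chains passed it, against 9 of 13 matrix-binding chains. The leukocyte median thus describes mostly dim signals, whose differences the offset compresses. Median differences on day 3 were -0.06 for the 8 leukocyte chains, -0.02 for the 13 matrix-binding chains and -0.05 for the 10 laminin chains, beside 0.04 for all 12393 genes. On day 30 they were -0.08, -0.03 and 0.06, beside 0.04. On day 60 they were -0.30, -0.13 and 0.04, beside -0.06. The leukocyte median of day 30 differed by strain, at -0.27 in MRL/MpJ, where 4 of 8 chains were above untreated, and 0.41 in C57BL/6, where 6 of 8 were. That of all genes was -0.04 and 0.13 in the same arrays. Medians within one strain rest on 1 array against 1 and carry no test.

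Counted by direction, 7 of the 32 genes were above their strain's untreated signal in all 6 ligated arrays (21.9%; background 9.31% of all genes): Itga2b, Itgam, Itgav, Itgb2, Lama1, Lama4 and Lamc1. Of these, Lama1 stayed at 13.5 or less. The count uses the brightest probe set, and the other probe sets of Itgav, Lama4 and Lamc1 were not above untreated in all 6 arrays. Itgal was the 1 gene below its strain's untreated signal in all 6 (3.12%, background 8.96%). All ligated signals exceeded both untreated ones in 4 genes (12.5%; background 5.83%) and lay below both in 1 (3.12%; background 5.47%). Without the C57BL/6 day 30 array, the counts over 5 arrays were 8 above, with Lamb1 added (background 11.2%), and 4 below, Itgal, Itgb7, Lama5 and Lamc3 (background 12%). The arrays of a strain share 1 untreated heart, so these directions are not independent of each other.

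Differences of at least 2-fold from the untreated array of the strain were few. On day 3 in MRL/MpJ, Itgav and Itgb2 were that far above (background 5.45% of all genes) and 0 below (2.98%), and in C57BL/6 there were 0 above (3.62%) and 0 below (2.4%). On day 30 MRL/MpJ had 0 above (3.62%) and Lamc3 below (3.32%), and C57BL/6 had Itga2b above (10.4%) and 0 below (6.61%). On day 60 MRL/MpJ had Itgam and Itgav above (4.55%) and Itgb7 and Lama5 below (3.62%), and C57BL/6 had 0 above (4.24%) and Itgal and Itgb2l below (3.45%). These folds were formed after adding the offset to each signal.

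Between the strains, the fibronectin receptor chain Itga5 and the laminin receptor chain Itga6 were lower in MRL/MpJ at all 4 time points. For Itga5, whose signals are given above, the highest MRL/MpJ value of 170 was below the lowest C57BL/6 value of 202.5. The difference, MRL/MpJ minus C57BL/6, was -0.67 ± 0.18 (adjusted p = 0.321), and it lay between -0.75 and -0.55 when any 1 array was left out. The other Itga5 probe set gave -0.14, with signals of 178.4, 133, 271.8 and 168.3 in MRL/MpJ and 267.9, 254, 144.4 and 171.8 in C57BL/6, which overlapped.

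Itga6 had a strain difference of -0.60 ± 0.19 (adjusted p = 0.419). Its other probe set, on its own, gave -0.54 ± 0.16 (adjusted p = 0.378), with 116.7 to 163.9 in MRL/MpJ and 190.8 to 232.8 in C57BL/6. In that probe set the strains did not overlap, while in the brightest they did. How many of all probe sets separate the strains in this way was not counted.

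In all, 4 genes were lower in MRL/MpJ in 4 of 4 pairs (12.5%; background 8.92%), Itga5, Itga6, Itgb2l and Itgb6, and 2 were higher, Lama2 and Lamc1 (6.25%; background 7.38%). The 4 MRL/MpJ signals lay below all C57BL/6 signals in 1 gene, Itga5 (3.12%; background 2.17%), and above them in 0 (background 1.58%). Itgb6 had -0.38 ± 0.18 (adjusted p = 0.652), Lama2 0.35 ± 0.17 (adjusted p = 0.666) and Lamc1 0.32 ± 0.19 (adjusted p = 0.717). The other, dim Lamc1 probe set gave 0.04, and on day 30 it was lower in MRL/MpJ (28.5 against 69.7). Class medians of the strain difference were -0.11 for leukocyte chains, 0.00 for matrix-binding chains and -0.03 for laminin chains, beside -0.03 for all genes.

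**Figure D4:**
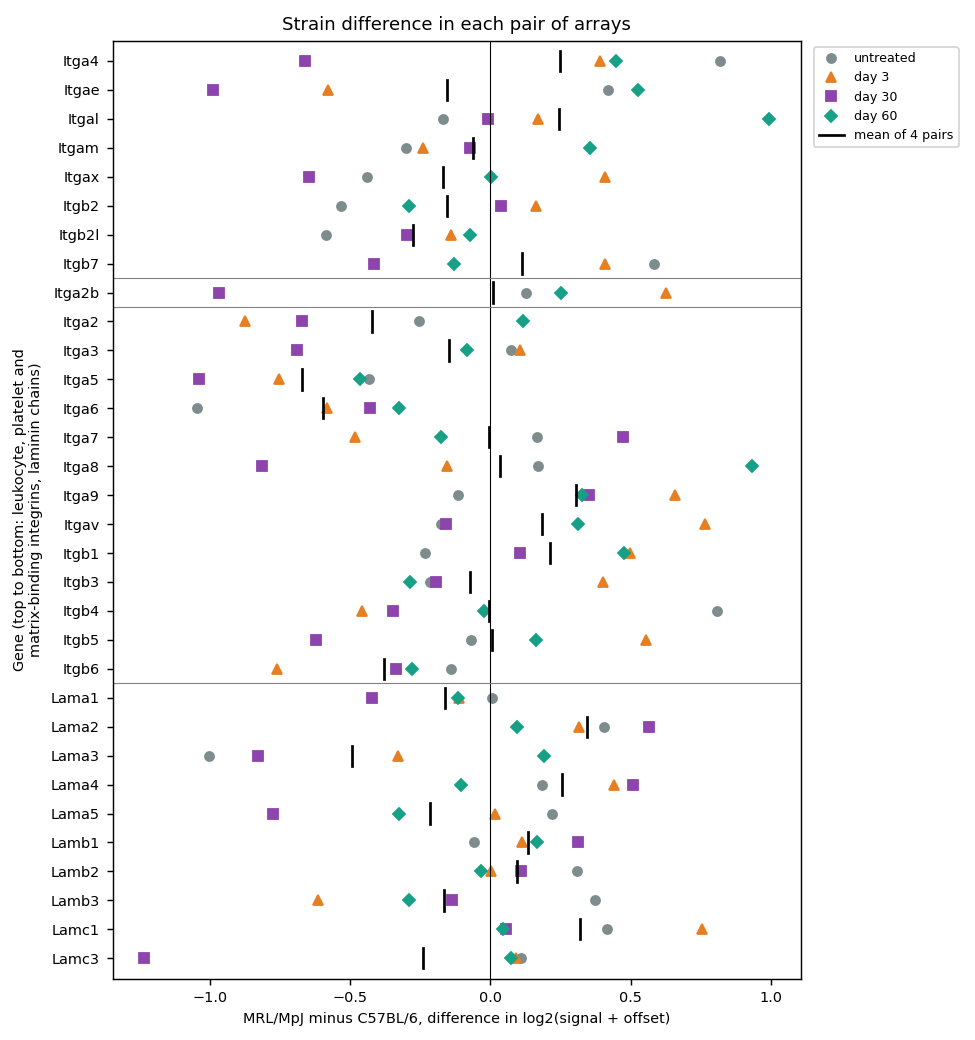
Strain difference of each of the 32 genes, MRL/MpJ minus C57BL/6, in log2(signal + offset) (horizontal axis), with 1 symbol per time point and a bar at the mean of the 4 pairs; rows are genes in the order of the classes. All 4 symbols of Itga5, Itga6, Itgb2l and Itgb6 lie left of 0 and those of Lama2 and Lamc1 right of 0.

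The response to ligation was also compared between strains. In MRL/MpJ on day 3, Itgb2 had 1.16, Itgav 1.14 and Lamc1 0.81 against untreated, and in C57BL/6 they had 0.46, 0.20 and 0.47. The strain difference on day 3 minus that at the other times reached no adjusted p under 0.05 in limma. Nor did the added term, the strain difference in the ligated pairs minus that in the untreated pair: it was 0.51 ± 0.45 for Itgb2, 0.48 ± 0.51 for Itgav and -0.13 ± 0.49 for Lamc1 (adjusted p of 1 in each). With 2 residual degrees of freedom and 1 array per group, a difference of this size could not be resolved.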

How the data were processed

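Total RNA of 8 left ventricles or pools, 1 array per strain and time point, had been hybridised as biotin-labelled cRNA to an Affymetrix mouse array. The deposited values are linear signal intensity for 22626 probe sets, made by the authors with MAS5 per the submitters' processing notes; other steps are not given in the sources used here. Probe sets were named through the platform annotation (20380 with 1 symbol, 691 with several, 1555 with none), and probe sets with 1 symbol gave 12393 genes, each taken as its brightest probe set by mean log2 value.

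Values were used as log2(signal + 28.6) without further normalization. Genes with a signal of at least 121 in 2 of 8 arrays, whatever their group, were tested (8195), with lmFit and eBayes of limma 3.58.1 in R 4.3.3, Benjamini-Hochberg adjustment over all of them and strain and time point as additive terms. The scripts were tested on simulated data. The 10 genes below the filter have values from the same fit without it. The number of arrays limits the precision.

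By rule, every member is named, and members with an unadjusted p under 0.05, or among the 3 brightest of their class, are given in every array. From the other lists, genes were named by choice, and they are not always those with the largest differences. Members and lists were chosen with earlier results of these data known. Alternatives covered offset, filter, normalization, probe set choice, an intensity trend and each array left out. The ligated-by-strain term, the fit per probe set, the values below the filter and the counts without the C57BL/6 day 30 array were added after seeing the data. Promoter sequences are from RefSeq.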

Additional observations from a re-analysis of the deposited data

Results flagged for a closer look

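The laminin receptor chain Itgb4 and the laminin chain Lamb2 lay on opposite sides of the untreated heart in the 2 strains, in all 3 ligated arrays of each. Itgb4 read 23.6, 24.7 and 18 on days 3, 30 and 60 in MRL/MpJ, all below its untreated 49, and 43.2, 39.2 and 18.7 in C57BL/6, all above its untreated 15.7. The strain difference in the ligated pairs minus that in the untreated pair was -1.08 ± 0.47 in the fit without the signal filter (SE, limma, adjusted p = 1), at signals near the offset of 28.6. Lamb2 read 364.2, 394.5 and 424.5 in MRL/MpJ, all below its untreated 429.7, and 363.5, 364 and 435.6 in C57BL/6, all above its untreated 341.3. That term was -0.28 ± 0.43 (adjusted p = 1). The 3 ligated arrays of a strain share 1 untreated array, so a single untreated array sets the direction of all 3. This pattern was looked for among the integrin and laminin genes only. Its share over all genes was not counted, so how common it is elsewhere is not known.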

How the results depend on the processing

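No integrin or laminin gene was called by limma under any of 17 alternatives, 9 of settings and 8 that left out 1 array each; none of the 236 gene values under alternatives passed the threshold. The sign turned in 1 of them: with the mean of all probe sets, dim ones among them, Itgb1 on day 30 against untreated stood at 0.07 (0.0732). Medians over classes moved by more than their spread in 38 of 200 values. With equal array medians, the laminin median was -0.155 on day 3, -0.0478 on day 30 and 0.0203 for strain, and the matrix-binding median was -0.131 on day 3 and -0.1387 on day 30. With the mean of all probe sets the laminin median was 0.0376 on day 3 and 0.0989 on day 30. With an offset at percentile 40 it was -0.002 on day 60 and 0.0108 for strain. With 1 array left out, the medians ranged as follows. On day 3 they were -0.0787 to 0.1186 for leukocyte, -0.0752 to 0.0404 for matrix-binding and -0.0465 to 0.0977 for laminin chains. On day 30 the ranges were -0.2793 to 0.4076, -0.2107 to 0.1721 and 0.0178 to 0.1869 in the same order of classes. On day 60 they were -0.5935 to -0.1078, -0.2458 to 0.087 and 0.0367 to 0.1492. For strain they were -0.158 to 0.0558, -0.1755 to 0.0324 and -0.096 to 0.0818. The cause of these moves was not tested. The day 3 term by strain could not be fitted without either day 3 array. No paired analysis was possible because each group holds 1 array, whose replicate number only names it; strains were set against each other within time points through the terms of the fit. Signal over background limits the dim chains: 10 of 32 genes were below the filter.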

Other observations

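Adaptors that couple integrins to actin were measured as a list of 22 genes, of which 19 were on the arrays and 17 were tested. None was called by limma in any comparison. At an unadjusted p under 0.05, 0 differed on day 3 (background 6.53% of tested genes), 3 were higher and 2 lower on day 30 (11%), 2 were higher and 0 lower on day 60 (10.6%), and 2 were higher and 0 lower for ligated against untreated (10.4%). There were 2 lower and 0 higher both for day 30 against day 3 (5.74%) and for day 60 against day 3 (6.43%), and 2 higher and 2 lower for strain (7.96%). For the day 3 term by strain there were 0 (5.09%), and for the ligated term by strain 0 (2.04%). Filamin A (Flna), which binds β chain tails, read 402.8 untreated, 681.7 on day 3, 776.1 on day 30 and 734.6 on day 60 in MRL/MpJ, and 333.5, 392.4, 450.2 and 569 in C57BL/6. Each ligated signal was above that of the untreated heart of its strain, and the difference was 0.63 ± 0.20 (adjusted p = 0.322). Talin (Tln1), the activator of integrins, had 0.62 ± 0.27 (adjusted p = 0.477). Of the 3 parvins, partners of integrin-linked kinase, Parva and Parvb had their lowest signals in the C57BL/6 day 30 array, which stands apart from the others, and Parvg its highest, 222.9. Parvb read 22.9 there, against 158 untreated, and 69.4 against 132.2 in MRL/MpJ, with -1.29 ± 0.34 on day 30 (adjusted p = 0.268). Parva gave -0.99 ± 0.39 on the same day (adjusted p = 0.427). Itgb1bp2 (melusin), a muscle protein that binds the β1 tail, read 2487.2 on day 30 in MRL/MpJ, against 2684.2 untreated. In the same C57BL/6 array it read 1209.9, against 2539.4 untreated (-0.58 ± 0.35 on day 30, adjusted p = 0.536). Parvg was lower on day 60 than on day 3 in both strains, at 78.6 against 200.1 in MRL/MpJ and 74.5 against 215.2 in C57BL/6.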
